A study of Homo sapiens with 6 samples.

Results

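Aminoacyl-tRNA synthetases and the scaffold proteins that hold several of them together are encoded by 39 genes of the 20033 protein-coding genes examined. MYC was mapped at these genes by chromatin immunoprecipitation sequencing (ChIP-seq). The genes were taken from a list of names, drawn up with earlier results of these data known. They comprise 20 cytosolic enzymes, most with symbols ending in 1, 16 mitochondrial enzymes with symbols ending in 2, and the 3 scaffold genes AIMP1, AIMP2 and EEF1E1. GARS1 and KARS1 each encode both a cytosolic and a mitochondrial form and were counted as cytosolic.

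The cells were MIAPaCa2, an established human pancreatic ductal adenocarcinoma line. All were kept in serum-free DMEM for 48 hours. They then received, for 3 hours, either fresh serum-free DMEM (the DMEM group) or serum-free medium conditioned by primary cancer-associated fibroblasts (the CM group). Each condition had 2 libraries immunoprecipitated with a MYC antibody and 1 input, which was not analysed here. Whether libraries of the same condition derive from separate cultures is not stated in the labels, and the spread between them may be technical. The comparison addressed where MYC was bound in starved cells with and without fibroblast-conditioned medium.

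Each synthetase joins an amino acid to its tRNAs, which then deliver it to the ribosome. Human cells carry largely separate nuclear-encoded enzymes for translation in the cytosol and in mitochondria. Several cytosolic enzymes and the 3 scaffold proteins form the multi-synthetase complex. MYC binds DNA together with MAX, preferentially at E-boxes, and genes for protein synthesis are among its known targets. ATF4, a factor of the amino acid response, binds composite elements that occur upstream of several cytosolic synthetase genes.

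A gene was called bound in a library when a deposited peak overlapped the 1000 bp on either side of its lower or upper annotated end (RefSeq, GRCh38.p14). Its score percentile is the rank of its highest-scoring peak within that library's list, with 100 at the top. There were 15304 and 12797 peaks in the lists from CM, against 4657 and 7652 in those from DMEM. Read depth is unknown. A count of bound genes therefore moves with the number of peaks in the list. Percentiles from lists of different lengths are set side by side below, and no change between conditions is read from them.

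The promoter sequences of 4 genes show how differently members near the top of the lists, or with contrasting peaks, are built. IARS1 (chr9:92293698-92293947, minus strand) holds an E-box and an ATF4-type element. MARS2 (chr2:197705119-197705368, plus strand) holds an E-box beside its start. FARSB (chr2:222656093-222656342, minus strand) ranked among the highest members and holds none of the motifs searched. AARS1 (chr16:70289507-70289756, minus strand) holds an ATF4-type element. These are the 250 bases before the annotated start in the RefSeq promoter table of GRCh38.p14, 5′ to 3′ in the direction of the gene. Capitals mark CACGTG, the canonical E-box, and TGATGNAA, the core of the ATF4-type element, or its reverse complement.
IARS1: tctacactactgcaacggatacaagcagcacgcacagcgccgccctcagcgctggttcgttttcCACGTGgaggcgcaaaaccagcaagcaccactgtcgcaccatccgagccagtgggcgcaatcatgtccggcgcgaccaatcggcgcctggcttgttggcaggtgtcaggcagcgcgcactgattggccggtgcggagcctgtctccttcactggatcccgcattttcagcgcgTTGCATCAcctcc
MARS2: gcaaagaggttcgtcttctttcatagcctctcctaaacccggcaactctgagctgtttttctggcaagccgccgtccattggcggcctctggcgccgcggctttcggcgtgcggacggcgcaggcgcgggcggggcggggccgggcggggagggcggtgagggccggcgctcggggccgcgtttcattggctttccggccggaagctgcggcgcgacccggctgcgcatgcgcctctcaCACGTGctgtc
FARSB: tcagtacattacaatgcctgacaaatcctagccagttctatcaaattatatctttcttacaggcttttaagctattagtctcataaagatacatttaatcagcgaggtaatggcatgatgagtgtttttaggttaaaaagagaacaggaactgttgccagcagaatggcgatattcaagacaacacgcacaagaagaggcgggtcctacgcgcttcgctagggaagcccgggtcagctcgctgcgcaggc
AARS1: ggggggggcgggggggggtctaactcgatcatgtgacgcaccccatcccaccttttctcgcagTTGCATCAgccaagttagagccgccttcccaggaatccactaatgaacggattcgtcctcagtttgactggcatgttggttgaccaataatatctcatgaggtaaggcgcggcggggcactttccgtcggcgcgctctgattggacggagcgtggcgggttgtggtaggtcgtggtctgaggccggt

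The ATF4-type cores found in 8 members are shown next, since this was the motif most unevenly spread between the classes. Each line gives 30 bases, read on the strand that carries TGATGNAA, with the core in capitals.
TARS1 at chr5:33440956-33440985, minus strand: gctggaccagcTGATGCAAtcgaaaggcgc
GARS1 at chr7:30594834-30594863, minus strand: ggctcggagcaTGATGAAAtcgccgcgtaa
IARS1 at chr9:92293692-92293721, plus strand: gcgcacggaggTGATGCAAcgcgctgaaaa
CARS1 at chr11:3057407-3057436, plus strand: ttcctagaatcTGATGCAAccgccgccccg
YARS2 at chr12:32756076-32756105, minus strand: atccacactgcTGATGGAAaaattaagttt
MARS1 at chr12:57488053-57488082, minus strand: gaatccctcgcTGATGCAAccggaaccggc
AARS1 at chr16:70289675-70289704, plus strand: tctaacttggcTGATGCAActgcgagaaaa
NARS1 at chr18:57621804-57621833, minus strand: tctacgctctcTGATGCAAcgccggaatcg

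The 5 E-boxes are shown in the same way, read in the direction of the gene.
MARS2 at chr2:197705346-197705375, plus strand: atgcgcctctcaCACGTGctgtcagaacgc
AIMP2 at chr7:6009478-6009507, plus strand: ccgggcgctggcCACGTGcaggtaggagcg
IARS1 at chr9:92293866-92293895, minus strand: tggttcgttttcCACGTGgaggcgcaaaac
CARS2 at chr13:110706501-110706530, minus strand: tgctgggatgcaCACGTGcttcgctaacag
EARS2 at chr16:23557348-23557377, minus strand: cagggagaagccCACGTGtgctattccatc

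MYC peaks lay at most synthetase genes in both conditions. In the CM libraries 34 and 32 of the 39 members were bound (87.2% and 82.1%), where 43.9% and 40.9% of all protein-coding genes were. In the DMEM libraries 22 and 27 members were bound (56.4% and 69.2%), against 16.8% and 28.1% of all coding genes. The mean was 33.0 ± 1.41 members in CM (SD, n = 2) and 24.5 ± 3.54 in DMEM (SD, n = 2). The difference of 8.5 members had p = 0.333 in an exact two-sided permutation test over the libraries, the smallest p that 2 against 2 libraries allow. The counts of the CM and DMEM libraries did not overlap. With only the 4657 top-scoring peaks of each library, the difference shrank to 0.5 members.

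By combination of libraries, 32 members (82.1%) were bound in both CM libraries, against 39.1% of all coding genes. In both DMEM libraries 21 members (53.8%) were bound, against 15.9% of all coding genes. The same 21 members were bound in all 4 libraries, again against 15.9%. Another 6 members (15.4%) were bound in both CM libraries and exactly 1 DMEM library, where the background was 12.3%. The 5 members (12.8%) bound in both CM libraries and neither DMEM library stood close to the background of 11.0%. The 5 members (12.8%) with no peak at an end in any library compare with 54.1% of all coding genes.

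**Figure D1:**
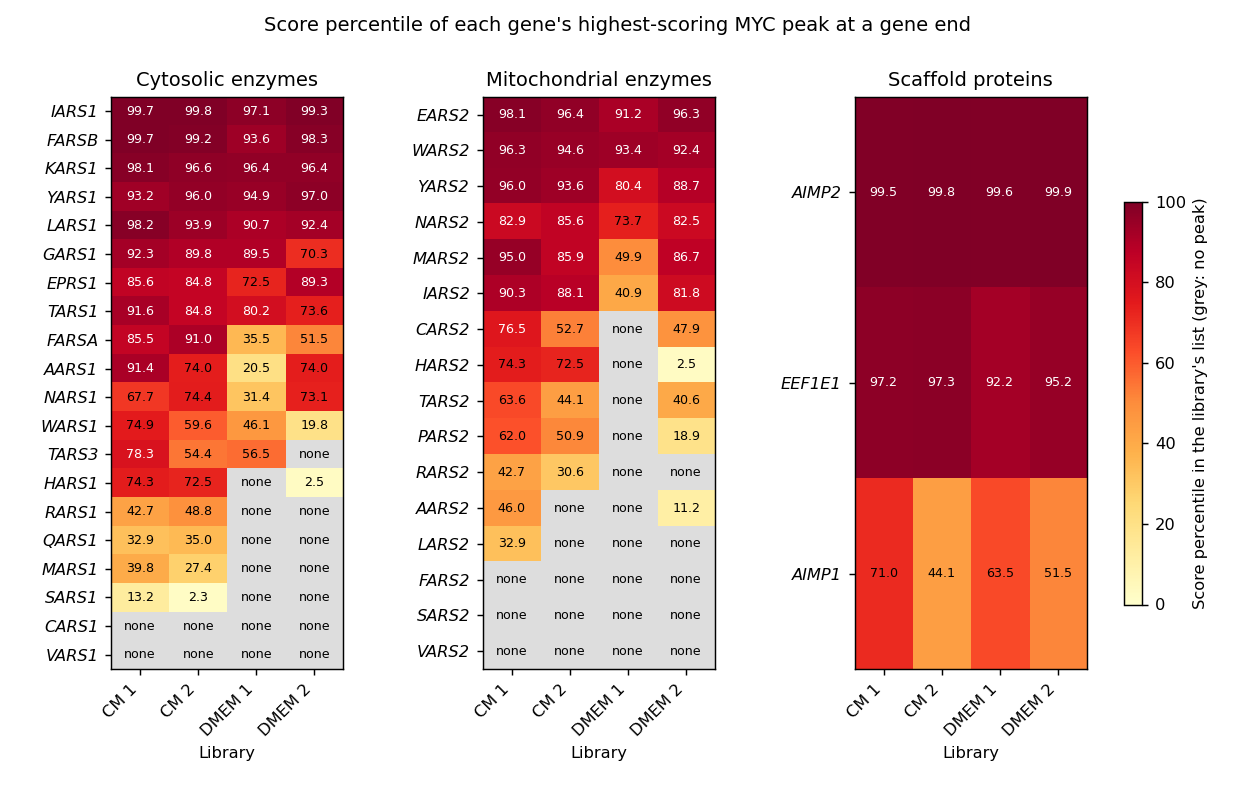
Score percentile (colour and number, 0 to 100) of the highest-scoring peak at an end of each of the 39 genes in each of the 4 libraries, with grey cells where no peak was found. IARS1, FARSB, KARS1, YARS1, LARS1, EARS2, WARS2, AIMP2 and EEF1E1 stand above 90 in every library, and RARS1, QARS1, MARS1, SARS1 and RARS2 have values in the CM libraries and none in DMEM.

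The scaffold genes were bound in every library. AIMP2, which encodes a core scaffold protein of the complex, had percentiles of 99.5 and 99.8 in CM and 99.6 and 99.9 in DMEM, the highest mean of any member (99.7). Its peak in the first CM library spanned chr7:6007900-6010928, 3029 bp, and that in the first DMEM library 1559 bp. This interval also lies at the end of PMS2, a DNA mismatch repair gene. EEF1E1, also called AIMP3, had percentiles of 97.2 and 97.3 in CM and 92.2 and 95.2 in DMEM. AIMP1, the third scaffold, ranked lower, at 71.0 and 44.1 in CM and 63.5 and 51.5 in DMEM, with the groups overlapping. Its peak was shared with TBCK, whose annotated end reaches into AIMP1.

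The 10 members of the multi-synthetase complex (EPRS1, IARS1, KARS1, LARS1, MARS1, QARS1, RARS1 and the 3 scaffolds) were all bound in both CM libraries, and 7 of them in all 4. The other 3, MARS1, QARS1 and RARS1, had no DMEM peak. Among the 7 bound in every library the median percentile was 98.1 and 96.6 in CM and 92.2 and 95.2 in DMEM. Of the 13 cytosolic enzymes outside the complex, 11 carried a peak in both CM libraries and 8 in all 4. Their medians were 91.5 and 87.3 in CM and 63.2 and 73.3 in DMEM. These medians describe the genes that were bound in every library and not the whole lists.

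Among the cytosolic enzymes, 18 of 20 (90%) carried a peak in both CM libraries and 12 (60%) in all 4. IARS1, the isoleucyl-tRNA synthetase, led them with percentiles of 99.7 and 99.8 in CM and 97.1 and 99.3 in DMEM. Its peak in the first CM library, chr9:92292812-92294861, covers the promoter printed above. FARSB, the beta subunit of the cytosolic phenylalanyl-tRNA synthetase, had 99.7 and 99.2 in CM and 93.6 and 98.3 in DMEM. Its peak was 3014 bp wide in the first CM library and 1756 bp in the first DMEM library. All 4 libraries placed both genes in the top 10% of their lists.

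KARS1, which charges lysine tRNAs, had percentiles of 98.1 and 96.6 in CM and 96.4 and 96.4 in DMEM. Its peak reaches TERF2IP, a telomere protein gene that starts 108 bp away on the other side. YARS1, which charges tyrosine tRNAs, had 93.2 and 96.0 in CM and 94.9 and 97.0 in DMEM, and its peak also lies at an end of S100PBP. LARS1, the leucyl enzyme and a sensor of leucine in mTORC1 signalling, had 98.2 and 93.9 in CM and 90.7 and 92.4 in DMEM. The values of these 3 genes overlap one another, so their order was not resolved by the spread between libraries.

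FARSA, the alpha subunit that pairs with FARSB in 1 enzyme, stood lower than its partner in every library. Its percentiles were 85.5 and 91.0 in CM and 35.5 and 51.5 in DMEM. The gap between mean CM and mean DMEM percentile was 44.8 points, the largest of the 21 members bound in all 4 libraries. AARS1, the alanyl enzyme, followed with a gap of 35.4 points (91.4 and 74.0 in CM, 20.5 and 74.0 in DMEM) and groups that met at 74.0. Its peaks lay at the far end of the gene, shared with EXOSC6. WARS1, the tryptophanyl enzyme, had a gap of 34.3 points (74.9 and 59.6 in CM, 46.1 and 19.8 in DMEM). The highest-scoring peaks of WARS1 in the 4 libraries did not all share a base. At the other end of the signed differences stood YARS1 (-1.3), AIMP2 (-0.1) and AIMP1 (0.0), followed by KARS1 (0.9). With 2 against 2 libraries no single gene could reach an exact p below 0.333, and the lists differ in length. The 3178 coding genes bound in all 4 libraries also had lower median percentiles in DMEM (63.5 and 77.4) than in CM (89.2 and 86.7).

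The other cytosolic enzymes bound in all 4 libraries were GARS1, EPRS1, TARS1 and NARS1. Their percentiles lay between 67.7 and 92.3 in CM and between 31.4 and 89.5 in DMEM. HARS1, which charges histidine tRNAs, and TARS3, a paralogue of TARS1, were bound in both CM libraries and 1 DMEM library. CARS1 and VARS1, the cysteinyl and valyl enzymes, had no peak at either end in any library.

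Among the mitochondrial enzymes, 11 of 16 (68.8%) carried a peak in both CM libraries and 6 (37.5%) in all 4. EARS2, which charges mitochondrial glutamate tRNAs, led with 98.1 and 96.4 in CM and 91.2 and 96.3 in DMEM. Its 2536 bp peak in the first CM library, chr16:23556242-23558777, also lies at the end of UBFD1. WARS2, the mitochondrial tryptophanyl enzyme, had 96.3 and 94.6 in CM and 93.4 and 92.4 in DMEM. Both stood in the top 10% of every list.

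YARS2, for tyrosine, had percentiles of 96.0 and 93.6 in CM and 80.4 and 88.7 in DMEM. NARS2, for asparagine, had 82.9 and 85.6 in CM and 73.7 and 82.5 in DMEM. MARS2, for methionine, had 95.0 and 85.9 in CM and 49.9 and 86.7 in DMEM. The low value of MARS2 came from the first DMEM library, and the other 3 libraries were within 10 points of one another. IARS2, for isoleucine, showed the same low first DMEM library, with 90.3 and 88.1 in CM and 40.9 and 81.8 in DMEM.

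The cytosolic and mitochondrial enzymes were bound to different extents in the first DMEM library, 13 of 20 (65%) against 6 of 16 (37.5%). In the second DMEM library the counts were 13 of 20 (65%) against 11 of 16 (68.8%). In CM the shares were 90% and 90% for cytosolic and 81.2% and 68.8% for mitochondrial genes. In the full lists, the lower count of mitochondrial genes in both DMEM libraries (6 of 16, against 12 of 20 cytosolic) thus rests on the first DMEM library, the shortest list. Without it the counts were 11 and 13. The counts also came closer under other settings. With any RefSeq start in place of the outer ends, where a start was known, they were 8 mitochondrial and 11 cytosolic. With a score of at least 50 they were 6 and 8. Windows of 500 and 2500 bp gave 6 against 11 and 6 against 13. With 4657 peaks in each list, the cytosolic shares were 65% and 60% in CM and 65% and 55% in DMEM. The mitochondrial shares were then lower in every library, at 50% and 43.8% in CM and 37.5% and 50% in DMEM. These counts use outer ends only. FARS2, bound at a start inside the gene, counts as unbound. AARS1, with its highest-scoring peak at an end shared with EXOSC6, counts as bound. CARS2, HARS2, PARS2 and TARS2 were the mitochondrial genes bound in both CM libraries and only the second DMEM library.

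Where a peak was present in all 4 libraries, the score ranks of the classes overlapped. The 12 cytosolic genes had median percentiles of 91.9 and 90.4 in CM and 84.9 and 81.6 in DMEM. The 6 mitochondrial genes had 95.5 and 90.9 in CM and 77.1 and 87.7 in DMEM. The difference of medians averaged -0.591 points (SD over the 4 libraries 6.04). Over all 21 members bound in every library the medians were 93.2, 91, 80.4 and 88.7, beside 89.2, 86.7, 63.5 and 77.4 for the 3178 coding genes bound in every library. In the top 10% of the lists stood 15, 11, 9 and 9 of the 21 members (71.4%, 52.4%, 42.9% and 42.9%), beside 47.5%, 40%, 15.9% and 24.8% of those 3178 genes.

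**Figure D2:**
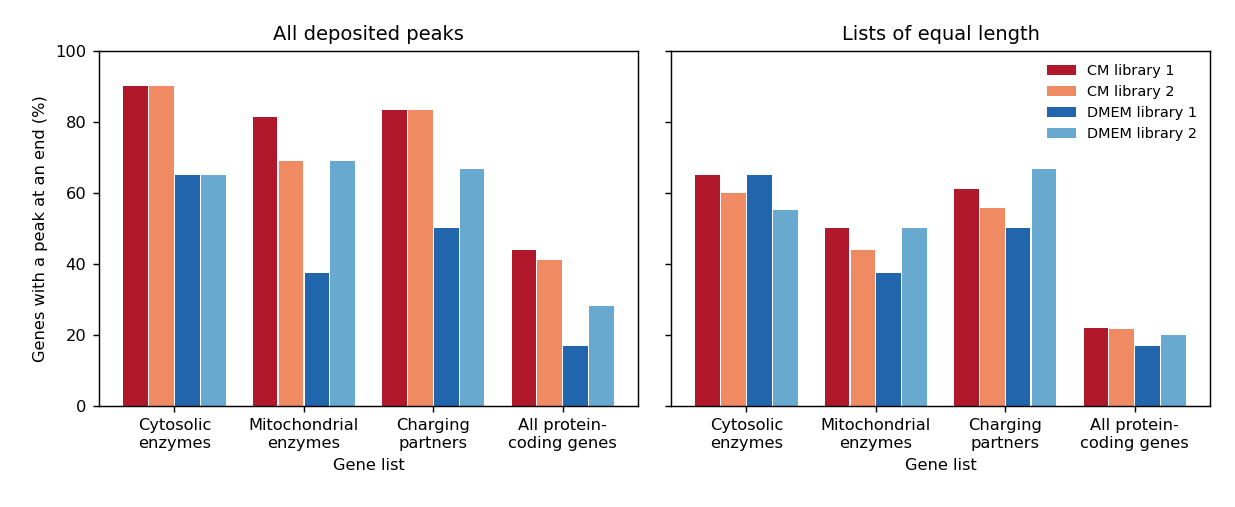
Percent of genes with a peak at an end in each of the 4 libraries, for 20 cytosolic enzymes, 16 mitochondrial enzymes, 18 charging partners and all protein-coding genes, with all deposited peaks on the left and with the 4657 top-scoring peaks of each library on the right. The mitochondrial bar of the first DMEM library (37.5%) is the lowest bar of the enzymes, and the difference between CM and DMEM bars seen on the left is smaller on the right.

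The lists of equal length compare members by rank alone. Cutting every list to the same length removes any difference in peak number between the conditions, whatever its cause, which was not tested. With 4657 peaks in each, 24 and 21 members were bound in CM (61.5% and 53.8%) and 22 and 22 in DMEM (56.4% each). The background was 21.9% and 21.6% in CM and 16.8% and 19.8% in DMEM. All 4 such lists held a peak at 18 members (background 12.3%). Only HARS1 and HARS2 were then bound in both CM and no DMEM list (background 1.93%), by 1 peak that serves both genes. The counts of the CM and DMEM libraries overlapped at this length.

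The 5 members bound only in CM were MARS1, QARS1, RARS1, SARS1 and RARS2, and all lay in the lower part of the CM lists. RARS1, for arginine, had percentiles of 42.7 and 48.8, and its mitochondrial counterpart RARS2 had 42.7 and 30.6. MARS1, for methionine, had 39.8 and 27.4. QARS1, for glutamine, had 32.9 and 35.0. SARS1, for serine, had 13.2 and 2.3, and its peaks in the CM libraries did not share a base. In the first CM library the peaks of MARS1, QARS1, RARS1 and SARS1 were 444, 683, 247 and 342 bp wide and that of RARS2 1266 bp, where the members bound in all 4 libraries had a median width of 1780 bp. None of the 5 was bound in any of the lists of equal length. This follows from their low CM percentiles and their lack of DMEM peaks, and is no separate result. No percentiles or widths of other coding genes bound only in CM stand beside these values. Low ranks and narrow peaks are therefore not shown to be particular to these members.

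HARS1 and HARS2 encode the cytosolic and mitochondrial histidyl enzymes and start 85 bp apart in opposite directions. A single peak covered both starts, at chr5:140690843-140691766 in the first CM library. Its percentile was 74.3 and 72.5 in CM and 2.5 in the second DMEM library, with no peak in the first. CARS2 had 76.5 and 52.7 in CM and 47.9 in the second DMEM library. TARS2 had 63.6 and 44.1 in CM and 40.6 there, and PARS2 had 62.0, 50.9 and 18.9. These 3 genes encode the mitochondrial enzymes for cysteine, threonine and proline, and none had a peak at an outer end in the first DMEM library. TARS3 alone had its DMEM peak in the first library, at 56.5, with 78.3 and 54.4 in CM. AARS2 was bound in the first CM library (46.0) and the second DMEM library (11.2), and LARS2 in the first CM library only (32.9).

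Among the 21 members bound in all 4 libraries, the order by peak score was similar in any pair of libraries. Spearman's rho was 0.89 between the CM libraries, 0.85 between the DMEM libraries and 0.83 to 0.87 across conditions. These are correlations across 21 genes, which share the libraries and the peak caller and are not independent replicates. The highest-scoring peaks of the bound libraries shared bases at every member bound in at least 2 libraries, except SARS1 and WARS1.

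The highest-scoring peak of most members with a known start lay at the start and not at the far end. Only peaks at an outer end were considered, so closeness to an end was set by the rule. Most coding genes were alike, since 3.4% to 4.23% of bound ones longer than 10000 bp had this peak at the far end. For 33 of the 39 members the RefSeq promoter table gives a start and strand. The peak's midpoint was within 1000 bp of the start at 28 of 30 such members bound in the first CM library, 27 of 29 in the second, 18 of 19 in the first DMEM library and 22 of 24 in the second. Over the peaks with a midpoint within 1000 bp, the median distance was 140.5 and 73.0 bp in CM and 178.5 and 108.5 bp in DMEM. The peak covered the start itself at 26, 26, 13 and 21 of these members.

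**Figure D3:**
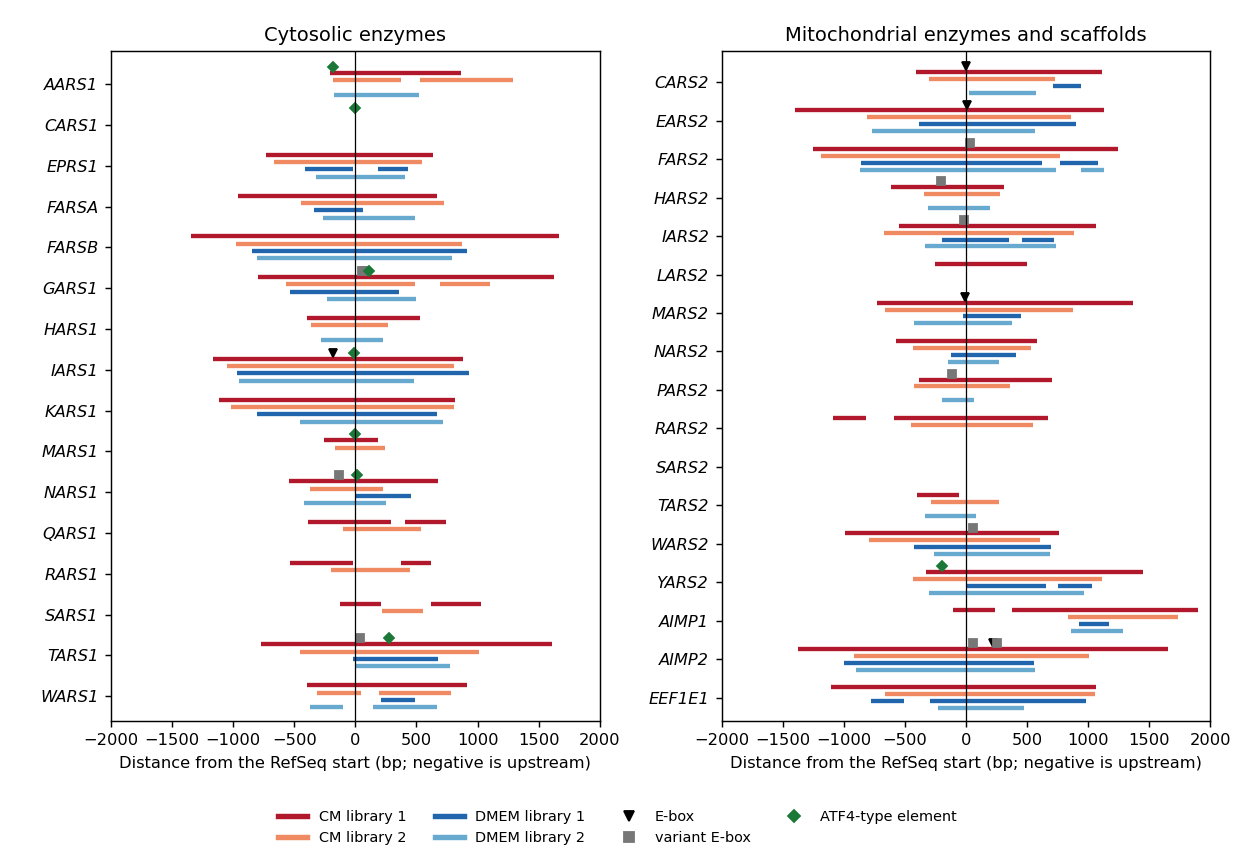
Extent of every peak within 2000 bp of the RefSeq start (bp, negative is upstream) for the 33 members with a start in the table, with 1 bar per peak and library and markers for E-boxes, variant E-boxes and ATF4-type elements. Most bars cross or touch the start, CARS1 and SARS2 have none, and the bars of the first CM library tend to be the longest.

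Counting by starts instead of outer ends left the class of 30 of the 33 members as it was and changed 3. FARS2, the mitochondrial phenylalanyl enzyme, had no peak at its outer ends, but a start 11073 bp inside the gene was bound in all 4 libraries. Its percentiles there were 99.0 and 96.0 in CM and 92.8 and 89.7 in DMEM, with a peak at chr6:5259753-5262254 in the first CM library. LYRM4, a gene for iron-sulphur cluster assembly in mitochondria, has an annotated end at the same place. CARS2 became bound in all 4 libraries through a start 7007 bp inside the gene, with 46.0 and 57.5 in CM and 35.5 and 26.2 in DMEM. The peak at its outer end is shared with ING1.

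AARS1 moved the other way. In all 4 libraries its highest-scoring peak lay at the far end of the gene, at chr16:70250752-70252438 in the first CM library, an interval shared with EXOSC6, a subunit of the RNA exosome. At its own start AARS1 had percentiles of 47.5 and 49.4 in CM, 40.6 in the second DMEM library and no peak in the first. The percentiles given above for AARS1, 91.4 and 74.0 in CM and 20.5 and 74.0 in DMEM, therefore belong to the EXOSC6 end. So does the gap of 35.4 points between them. Among coding genes longer than 10000 bp, the highest-scoring peak lay at the far end in 3.4% to 4.23% of those bound.

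Of the 34 members with a peak, 13 shared their highest-scoring peak with an end of another coding gene. Beside those named above, these were MARS1 with ARHGAP9, WARS1 with WDR25, RARS2 with ORC3 and TARS3 with TM2D3. Counting noncoding genes and readthrough genes as well, 19 members shared it, among them IARS1 with the small nucleolar RNA gene SNORA84 and MIR3651, FARSA with FARSA-AS1, FARSB with LOC124907985, TARS1 with TARS1-DT, WARS2 with WARS2-AS1 and EEF1E1 with EEF1E1-BLOC1S5. A shared peak cannot be assigned to one of the genes from these data. Leaving out every peak shared with another coding gene left 19 of 39 members (48.7%) bound in both CM libraries, against 25.4% of all coding genes counted in the same way.

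Of the 8 members with an ATF4-type core, 7 were cytosolic enzymes. The RefSeq windows, 250 bases before to 50 after a start, were searched on both strands in 33 members and 15842 coding genes. TGATGNAA occurred in 7 of 16 cytosolic enzyme genes (43.8%: AARS1, CARS1, GARS1, IARS1, MARS1, NARS1 and TARS1), in 1 of 14 mitochondrial genes (7.14%: YARS2) and in none of the 3 scaffolds. It occurred in 3.6% of all coding genes and in 2.42% of those bound in all 4 libraries. In 6 of the 8 sites printed above, the open position N was C, and 6 of the 8 began within 40 bp of a start. A match of these letters is not a binding site for ATF4, which was not measured.

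CACGTG occurred in 1 cytosolic gene (6.25%: IARS1), in 3 mitochondrial genes (21.4%: CARS2, EARS2 and MARS2) and in AIMP2, in all 5 of 33 members (15.2%). It occurred in 10.9% of all coding genes and in 20% of those bound in all 4 libraries. The variant CACGCG occurred in 3 cytosolic (18.8%) and 5 mitochondrial genes (35.7%), against 18.1% of all coding genes and 30.2% of those bound in all 4. Over all 33 members the shares of both E-box forms (15.2% and 27.3%) lay between those of all coding genes and of genes bound in every library. The shares of the classes taken alone did not all lie in that range. Among the 19 members with a promoter window that were bound in all 4 libraries, the shares were 21.1% and 31.6%. No 2 motif sites overlapped in any member.

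All 5 E-boxes lay inside a peak in both CM libraries, and 4 of 5 in each DMEM library. The sites were searched only close to starts, and the peaks of most bound members cover the start. Sites of any motif would thus often lie inside a peak, and no share over all coding genes stands beside these counts. The first base of the E-box lay 186 bp before the start of IARS1, 11 bp before that of MARS2, 3 bp before the inner start of CARS2, 15 bp before the inner start of EARS2 and 75 bp before the inner start of AIMP2. The TGATGNAA sites of 7 and 6 of the 8 genes lay inside a peak in CM, and those of 4 and 5 in DMEM. The site of CARS1 begins 2 bp before its start and straddles it, and CARS1 had no peak. MARS1, whose site also straddles its start, was bound only in CM. Of the 19 members bound in every library with a promoter window, 8 had none of the 3 motifs in it (AIMP1, EEF1E1, EPRS1, FARSA, FARSB, KARS1, NARS2 and WARS1).

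**Figure D4:**
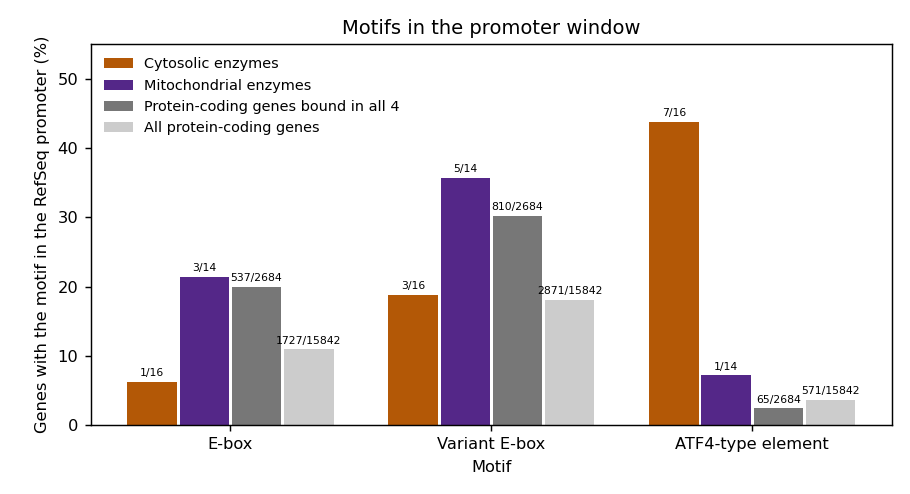
Percent of genes whose 300 bp RefSeq promoter window holds CACGTG (E-box), CACGCG (variant E-box) or TGATGNAA (ATF4-type element) on either strand, for cytosolic enzymes, mitochondrial enzymes, coding genes bound in all 4 libraries and all coding genes, with counts above the bars. The ATF4-type bar of the cytosolic enzymes (7 of 16) is the tallest, and the mitochondrial enzymes are above the cytosolic ones for both E-box forms.

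The partners of tRNA charging, 18 genes for amidation of charged tRNAs, selenocysteine synthesis, tRNA maturation and export, proofreading and delivery to the ribosome, were bound as follows. In CM 15 and 15 were bound (83.3% each), against 43.9% and 40.9% of all coding genes. In DMEM 9 (50%) and 12 (66.7%) were bound, against 16.8% and 28.1%. In all 4 libraries 9 (50%) were bound, against 15.9% of all coding genes. These 9 were GATC, PSTK, TRNT1, XPOT, DTD1, DTD2, EEF1A1, EEF1G and TUFM. EEF1A1, which brings charged tRNAs to the cytosolic ribosome, had 94.2 and 88.0 in CM and 96.0 and 96.1 in DMEM. TUFM, its mitochondrial counterpart, had 90.6 and 92.8 in CM and 51.8 and 45.9 in DMEM. QRSL1, SEPHS2 and AARSD1 lacked a peak in 1 DMEM library, and GATB and MTFMT lacked one in both. SEPSECS and TSFM were bound in 1 CM library each, and EEF1B2 and EEF1D in none. None of the 15 partners in the promoter table carried TGATGNAA, which occurred in 3.6% of all coding genes.

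The members without a peak at an outer end were CARS1, VARS1, SARS2, VARS2 and FARS2, the last of which was bound at its inner start. VARS1 and VARS2 lie in 1 stretch of chromosome 6 (chr6:28383652-33570588, 5.19 Mb) with no peak in any of the 4 lists. It holds 173 coding genes, more than any other peak-free stretch. Elsewhere on chromosome 6, 46.3% and 44.6% of 876 coding genes were bound in CM and 18.9% and 31.6% in DMEM. SARS2 lies in a peak-free stretch of 627.7 kb on chromosome 19 with 18 coding genes, and CARS1 in one of 172.1 kb on chromosome 11 with 1. The numbers in the peak names run on without a gap across each of these stretches in every list. The lack of a peak at VARS1 and VARS2 is thus shared with the whole stretch around them, and its cause was not tested.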

How the data were processed

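The submitters' processing notes name MACS2 2.1.1.20160309 and, for the steps on reads, Bowtie2 2.3.4, Trim Galore 0.4.3, Picard 2.9.0 and SAMtools 1.3.1. They give the build as GRCh38. Tool settings and the pairing of inputs with libraries were not given in the sources used here. Each immunoprecipitated library has 1 peak list deposited by the authors, with positions and a whole-number score per peak (at least 13). Common lists of both conditions were deposited as well. The deposited score served for ranks and filters inside a single list. No read counts are in these lists, so depth is unknown, counting intervals cannot be given, and the number of peaks in a list limits how many genes it can reach.

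Peaks were joined to the outermost ends of 20033 RefSeq protein-coding genes (GRCh38.p14) with a window of 1000 bp and an overlap of at least 1 bp, using Python 3.11.15, pandas 2.3.3, NumPy 2.4.6, SciPy 1.17.1 and Matplotlib 3.10.9. The overlap step was tested on simulated data. All 39 members had positions. RefSeq promoter windows, 250 bases before to 50 after a start, were available for 33 of them. No entry was used for LARS1, VARS1, YARS1, AARS2, VARS2 and TARS3. CM and DMEM counts were set against each other by exact permutation of the 4 libraries (two-sided, 6 relabellings). Gene classes were described by counts and medians beside those of all coding genes, with no test.

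The members, the lists of complex members and charging partners, and the motifs were chosen with earlier results of these data known. Percentiles are given in full for the top 5 cytosolic and top 5 mitochondrial genes by mean percentile among those bound in every library, the 3 scaffolds, the genes bound only in CM, and the 3 with the largest and 3 with the smallest signed CM minus DMEM difference. Other members are named by class, and further values were given after they were seen. Alternatives were windows of 500 and 2500 bp, the peak midpoint, a score of at least 50, lists of equal length, gene starts, the common lists, leaving out each library, a replicate block, GARS1 and KARS1 left out, each gene's longest peak, and peaks shared between coding genes left out. The last of these, and the use of any RefSeq start, were added after the data were seen. The replicate numbers come from the titles, and nothing in the labels says that they mark a shared batch.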

Additional observations from a re-analysis of the deposited data

How the results depend on the processing

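In all, 132 values were recomputed under 17 settings. With lists of equal length, 20 members were bound in both CM libraries, 11 of them cytosolic and 7 mitochondrial, 2 members were bound in CM only, and the difference between CM and DMEM fell to 0.5 members (exact permutation p = 1.0). With peaks shared between coding genes left out, 19 members were bound in both CM libraries (11 cytosolic, 7 mitochondrial), 3 in CM only, and the difference was 4 members. With a score of at least 50, the median percentile of cytosolic minus mitochondrial genes was 9.81 (SD 10.4) in place of -0.591, and over the other settings on all 4 libraries it ranged from -3.91 to 3.33, so its sign was not stable. Leaving out each library in turn gave a difference of 6 to 11 members. Without 1 library, 5 to 10 members were bound in CM only, with 10 reached without the second DMEM library, and 6 to 11 mitochondrial genes in DMEM, with 11 reached without the first. The other counts moved by less than 1.5 times when a library was left out, and the median difference ranged from -0.644 to 0.407. Paired by replicate number, the differences were 12 and 5 members, and the replicate block gave 8.5 with an exact p of 0.5, the smallest 2 pairs allow. With 2 pairs and no label of a shared batch, the numbers do not show that libraries were paired. The common lists gave no value per library, for genes bound in CM only or for percentiles.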

Other observations

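For 13 amino acids both a cytosolic and a mitochondrial enzyme gene bear the same stem of the symbol, and the members of a pair were often bound in different libraries. Both genes were bound in all 4 libraries for 4 pairs (IARS, NARS, WARS and YARS), only the cytosolic gene for 3 (AARS, LARS and TARS), only the mitochondrial gene for MARS, and neither for 5. Among the 4 pairs bound throughout, the tryptophanyl genes stood furthest apart, with mean percentiles of 50.1 for WARS1 and 94.2 for WARS2. For asparagine the mitochondrial gene was also the higher, at 81.2 for NARS2 and 61.6 for NARS1. For isoleucine the cytosolic gene was the higher, at 99.0 for IARS1 and 75.3 for IARS2, and for tyrosine the values were 95.3 for YARS1 and 89.7 for YARS2. AARS1 was bound in all 4 libraries only through the end it shares with EXOSC6. MARS1, bound in CM only, and MARS2 had mean CM percentiles of 33.6 and 90.5. These pairs were compared after the values were seen, with no test.

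The peak-free stretch around VARS1 and VARS2 was followed, by number of coding genes, by a stretch of 9.2 Mb on chromosome 11 with 65 genes and by stretches of 3.09 and 0.85 Mb on chromosome 17 with 55 genes each. None of the latter holds a member.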
